A study of Mus musculus with 12 samples.

Results

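These data describe what a single dose of dexamethasone did to messenger RNA in the livers of HESKOL mice, the strain that the labels describe as a knockout, in a series on the Notch-controlled repressor Hes1 and glucocorticoid signalling in the liver. The 6 HESKOL arrays, 3 from dexamethasone-treated and 3 from untreated mice, were chosen by their titles out of 12 arrays in all. The other 6 arrays came from wild-type mice, 3 treated and 3 untreated. All mice of both genotypes were male C57BL/6 animals aged 8 to 10 weeks whose adrenal glands had been removed, so that no group made its own corticosterone. Treated mice received 1 mg/kg dexamethasone into the abdominal cavity and their livers were taken 6 h later. The allele, the cells in which it acts, and whether untreated mice were injected with vehicle are not given in the sources used here. Each array carried Cy3-labelled RNA from 1 mouse. A value is the log2 of a probe's signal minus the log2 of its own array's 75th percentile, so that 0 marks a probe at that percentile and 1 unit is a doubling. Signals of different probes are not comparable with each other, and each comparison of a gene below is of 1 probe across livers.

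Dexamethasone is a synthetic glucocorticoid that binds the glucocorticoid receptor, a nuclear receptor which then enters the nucleus. The receptor binds DNA at paired half-sites, known as glucocorticoid response elements, and raises transcription of nearby genes, and it lowers transcription of inflammatory genes largely through other transcription factors. In liver the hormone is known for raising glucose output and amino acid breakdown, for changing fat handling, and for quieting macrophages.

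Of 18726 features measured above background, 683 rose with dexamethasone in HESKOL liver (3.65% of those tested) and 791 fell (4.22%), at an adjusted p under 0.05 in limma over all 12 arrays. Changes were large: 1270 of the 1474 called features differed by at least 2-fold, and at least 8-fold changes numbered 86 upward and 53 downward. At 16-fold or more there were 40 increases and 13 decreases. These counts use measured differences. They thus take in called features whose probe was not above background in a whole group, 74 in all. For those 74 the fold is known only as a lower bound, so the true counts may be smaller. Hao2 is counted at 16-fold and Tnf at 8-fold, while the lower bounds given for them below are smaller. The median change of all tested features was -0.003 on the log2 scale, and the median size of a called change was 1.54 with a median standard error of 0.33. Treated and untreated livers did not overlap for 1473 of the 1474 called features, beside 6419 (34.3%) of all features tested. The first principal component of the 6 arrays held 57.9% of their variance and set all 3 treated livers, at 32 to 78.6, apart from all 3 untreated ones, at -86.4 to -32.5. The scatter of change against adjusted p shows how the extremes were spread.

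**Figure D1:**
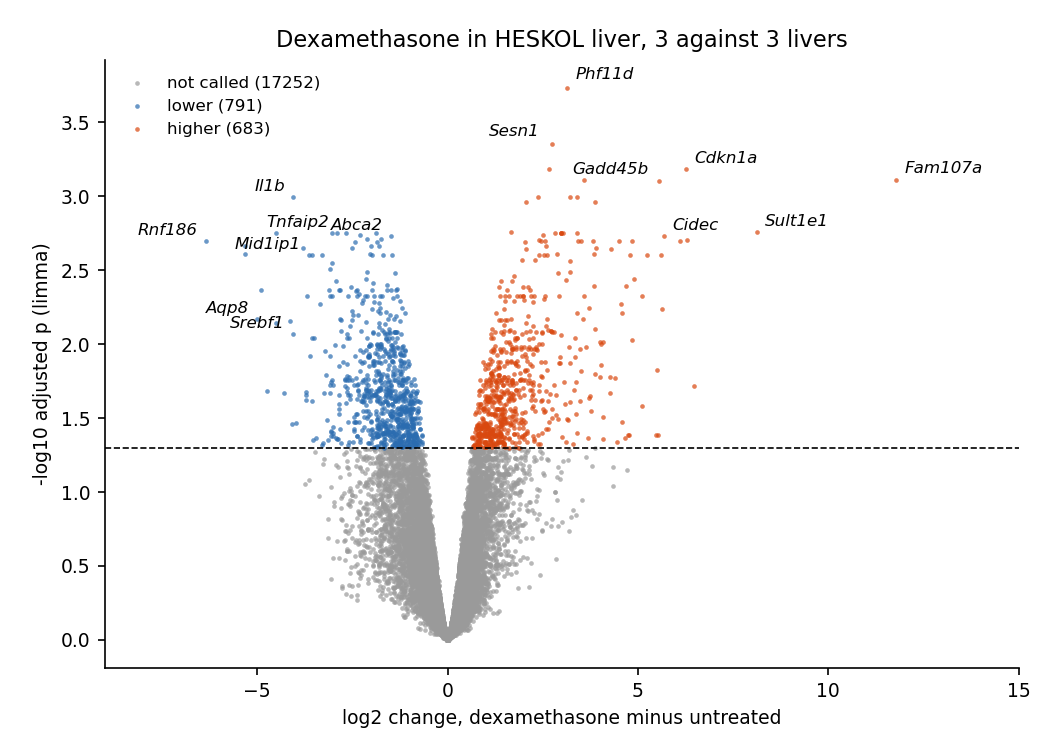
Log2 change with dexamethasone in HESKOL liver (horizontal, treated minus untreated, n = 3 livers each) against -log10 of limma's adjusted p (vertical) for 18726 features; the dashed line is an adjusted p of 0.05. The 683 coloured points on the right rose and the 791 on the left fell. A probe not above background in 1 group, such as Fam107a, is drawn at its measured difference, which is no estimate of its fold.

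A limit bears on all of these values. No slide held both HESKOL groups: untreated replicate 1 lay on slide 1, untreated replicates 2 and 3 on slide 2, and all 3 treated livers on slide 3, so slide and treatment cannot be told apart within HESKOL. With slide as a fixed block, only wild-type treated replicate 3 ties slide 3 to the other slides. It is set against wild-type treated replicates 1 and 2 on slide 2. Every estimate of the HESKOL change with slide as a fixed block, here and below, thus rests on that 1 array. The median SE of the 1474 was 0.581 in that fit, beside 0.33 without the block. It called 0 features (1202 at an unadjusted p under 0.05, beside 4611 without the block), while 1455 of the 1474 kept their sign. Leaving out 1 HESKOL array lowered the number called to between 367 (without untreated replicate 1) and 975 (without untreated replicate 3), with 371 without untreated replicate 2 and 792, 388 and 571 without treated replicates 1, 2 and 3. None of the 1474 changed sign in these 6 fits. For the 1473 whose groups did not overlap this was fixed in advance, so it is no sign of stability. Of the 1474, 281 kept their call in all 6 (145 higher, 136 lower). Genes of that group are described below as called in every leave-out.

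Hes1 itself was checked first. Its signals were -2.46, -2.40 and -3.09 in untreated and -3.08, -3.02 and -3.86 in treated HESKOL livers. Its mean in HESKOL was 46.1% of the wild-type mean without dexamethasone and 46.7% with it (exact two-sided permutation p = 0.1 each, the smallest that 3 livers against 3 can give). Hes1 did not pass the test for dexamethasone in HESKOL liver (-0.67 ± 0.43 SE, limma adjusted p = 0.369), and the treated and untreated livers overlapped. Whether the probe lies inside the deleted part is not given, so the lower level does not by itself check the genotype.

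Promoter windows show where the receptor's full element occurs among the called genes. RefSeq windows of 300 bases (250 before to 50 after a start, GRCm38.p6) were found for 443 named genes that rose and 565 that fell. The full element, searched as GNACA and TGTNC with any 3 bases between, reads the same on both strands and occurred in 8 of the 443 (1.81%), in 1 of the 565 (0.177%), and in 54 of all 12024 tested genes with a window (0.449%). The 8 were Fam107a, Slc10a6, Map3k6, Txnip, Serpina3c, Sgk1, Serpina3n and Mt1, and the 1 was Hsd3b6, an enzyme of steroid metabolism. Serpina3c and Serpina3n are neighbouring copies of 1 serpin family and held the same 13 letters. The 5 windows printed next are shown because they carry the full pattern, in capitals, upstream of 4 genes that rose and of the 1 that fell. The windows lie at chr14:8309728-8310027 (minus strand, Fam107a), chr5:103629354-103629653 (minus strand, Slc10a6), chr4:133240568-133240867 (plus strand, Map3k6), chr10:21993640-21993939 (plus strand, Sgk1) and chr3:98814394-98814693 (minus strand, Hsd3b6).
Fam107a: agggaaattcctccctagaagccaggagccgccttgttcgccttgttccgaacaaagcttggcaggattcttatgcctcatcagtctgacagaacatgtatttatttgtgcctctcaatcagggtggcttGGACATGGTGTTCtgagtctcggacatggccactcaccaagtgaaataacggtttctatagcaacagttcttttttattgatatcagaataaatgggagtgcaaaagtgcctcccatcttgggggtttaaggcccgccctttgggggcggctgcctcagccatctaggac
Slc10a6: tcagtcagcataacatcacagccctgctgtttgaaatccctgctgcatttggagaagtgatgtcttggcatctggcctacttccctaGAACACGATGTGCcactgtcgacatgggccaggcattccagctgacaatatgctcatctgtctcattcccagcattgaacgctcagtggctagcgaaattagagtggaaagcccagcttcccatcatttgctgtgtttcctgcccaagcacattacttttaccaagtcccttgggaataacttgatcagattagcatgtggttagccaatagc
Map3k6: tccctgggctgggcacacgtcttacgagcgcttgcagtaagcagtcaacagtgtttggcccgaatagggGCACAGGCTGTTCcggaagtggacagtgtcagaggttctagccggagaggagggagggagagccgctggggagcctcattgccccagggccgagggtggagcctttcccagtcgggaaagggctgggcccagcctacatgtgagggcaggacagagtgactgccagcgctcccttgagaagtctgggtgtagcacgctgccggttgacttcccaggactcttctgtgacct
Sgk1: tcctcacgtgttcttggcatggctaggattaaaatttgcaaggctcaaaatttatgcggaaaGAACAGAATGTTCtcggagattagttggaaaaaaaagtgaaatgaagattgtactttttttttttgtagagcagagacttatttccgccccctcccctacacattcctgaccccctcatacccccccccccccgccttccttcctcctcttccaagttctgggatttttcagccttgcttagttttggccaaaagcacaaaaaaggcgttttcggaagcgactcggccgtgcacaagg
Hsd3b6: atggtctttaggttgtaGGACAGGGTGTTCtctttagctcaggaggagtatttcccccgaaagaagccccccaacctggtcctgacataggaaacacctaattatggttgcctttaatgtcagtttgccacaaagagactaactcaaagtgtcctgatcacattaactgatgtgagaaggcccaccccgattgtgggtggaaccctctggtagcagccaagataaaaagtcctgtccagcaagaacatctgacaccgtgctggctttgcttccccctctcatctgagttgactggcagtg
The centre of the pattern lay 114 bases before the start in Fam107a, 157 in Slc10a6, 175 in Map3k6, 182 in Sgk1 and 227 in Hsd3b6. The half-site TGTTCT alone, searched on both strands and able to overlap the full pattern, was in 16.93% of the genes that rose, 13.63% of those that fell and 16.08% of all tested. The E-box CACGTG, a letter pattern bound by clock and lipogenic factors as well as by Hes-type repressors, was in 13.77%, 7.96% and 10.92%. The other shares lay close together: 43.79%, 45.84% and 45.37% for CACNAG, the N-box of Hes repressors, 1.81%, 1.24% and 1.46% for the sterol pattern TCACNCCAC, and 4.29%, 3.54% and 3.81% for the interferon pattern, GAAA and GAAA with any 2 bases between. The endoplasmic reticulum stress pattern, CCAAT and CCACG with any 9 bases between, occurred in 0 of the 443, 0 of the 565 and 21 of the 12024. A match is a run of letters and not a binding site.

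The genes printed above differed widely in how far they moved. Fam107a, an actin-associated stress-response protein, was not well above background in any untreated liver (-8.82, -9.60 and -8.80). It reached 2.87, 2.35 and 2.90 in the treated ones, at least 923-fold higher (limma adjusted p = 0.00077). That p takes the untreated readings at background as measured values. Among HESKOL livers the probe could meet the signal filter through the treated group alone. Slc10a6, a carrier of sulfated steroids, read -6.78, -6.76 and -6.13 without and -1.59, -1.21 and -1.56 with the drug, 34.5-fold higher. Map3k6, a stress-activated kinase, went from -1.95, -1.46 and -0.74 to 2.22, 2.68 and 2.61 (3.88 ± 0.39 SE). In each of these 3 genes the lowest treated liver stood at least 2.96 log2 units above the highest untreated one, and all 3 calls stood in every leave-out. Sgk1, a kinase that acts on sodium channels and carriers, measured 2.72, 2.37 and 2.04 in untreated livers and 4.86, 4.97 and 3.40 in treated ones, where replicate 3 was the lowest. Its change of 2.03 was called in 3 of the 6 leave-outs. Hsd3b6 fell from 0.58, -0.29 and 0.06 to -1.14, -1.63 and -1.75, a change of -1.63 (adjusted p = 0.0357 in limma) that was called in none of the 6 leave-outs and turned to 0.059 with slide as a fixed block.

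Several of the strongest increases were in genes that lay near or below background without the drug. Sult1e1, the sulfotransferase that inactivates oestrogen, read -5.38, -5.68 and -1.87 in untreated livers and 3.87, 4.36 and 3.23 in treated ones, 280-fold higher. Untreated replicate 3 was far above the other 2, and the log2 change of 8.13 ranged from 7.45 to 9.35 over the leave-outs. Stmn2, a tubulin-binding protein of growing neurites, was not above background in any untreated liver (-8.89, -7.32 and -7.23) and read -1.75, -1.85 and -0.98 with dexamethasone, at least 46.7-fold higher. Lancl3 was likewise not above background in untreated liver (-9.25, -9.57 and -8.75) and read -4.40, -1.97 and -2.89 in treated liver, at least 16.7-fold higher. Itga2, the alpha subunit of a collagen-binding integrin, had the same pattern, with -9.13, -8.45 and -8.67 against -4.41, -1.95 and -3.06, at least 16.1-fold higher. Treated replicate 1 was the lowest of the 3 for both Lancl3 and Itga2. The synthetic enzyme of the transmitter GABA, Gad2, was at least 8.97-fold higher, but its call stood in 1 of 6 leave-outs. Tg, the precursor of thyroid hormone, was above background in 1 untreated liver (-8.43, -6.80 and -6.88) and read -1.17, -1.79 and 0.26 in the treated ones, a change called in 2 of 6 leave-outs. Serpina5, an inhibitor of clotting proteases, read -7.20, -8.69 and -4.94 and -0.66, -2.58 and -1.01, with untreated replicate 3 the highest of its group.

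Genes with a clear untreated signal also rose steeply. Cdkn1a, the cell cycle inhibitor p21, went from -3.03, -1.88 and -3.15 to 3.28, 3.93 and 3.51, 76.7-fold higher with an SE of 0.54. Gadd45b, a stress-induced activator of MAP kinase signalling, read -1.58, -1.57 and -2.0 and then 3.1, 4.41 and 4.04, 47.4-fold higher. Treh, the trehalose-splitting enzyme, was 28.9-fold higher (-4.69, -4.35 and -1.74 against 0.93, 1.31 and 1.55), with untreated replicate 3 well above the other 2. Fibin, a secreted protein, rose 28.5-fold from -1.57, -2.51 and -1.41 to 3.63, 3.37 and 2.0. Rgs16, which shortens G protein signals, rose 24.2-fold and was lowest in untreated replicate 2 (0.84, -1.34 and 1.02 against 4.36, 5.26 and 4.68). All 5 of these calls stood in every leave-out. No treated liver reached down to an untreated one, but this was a condition for naming the largest changes. It held for 34.3% of all features tested.

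**Figure D2:**
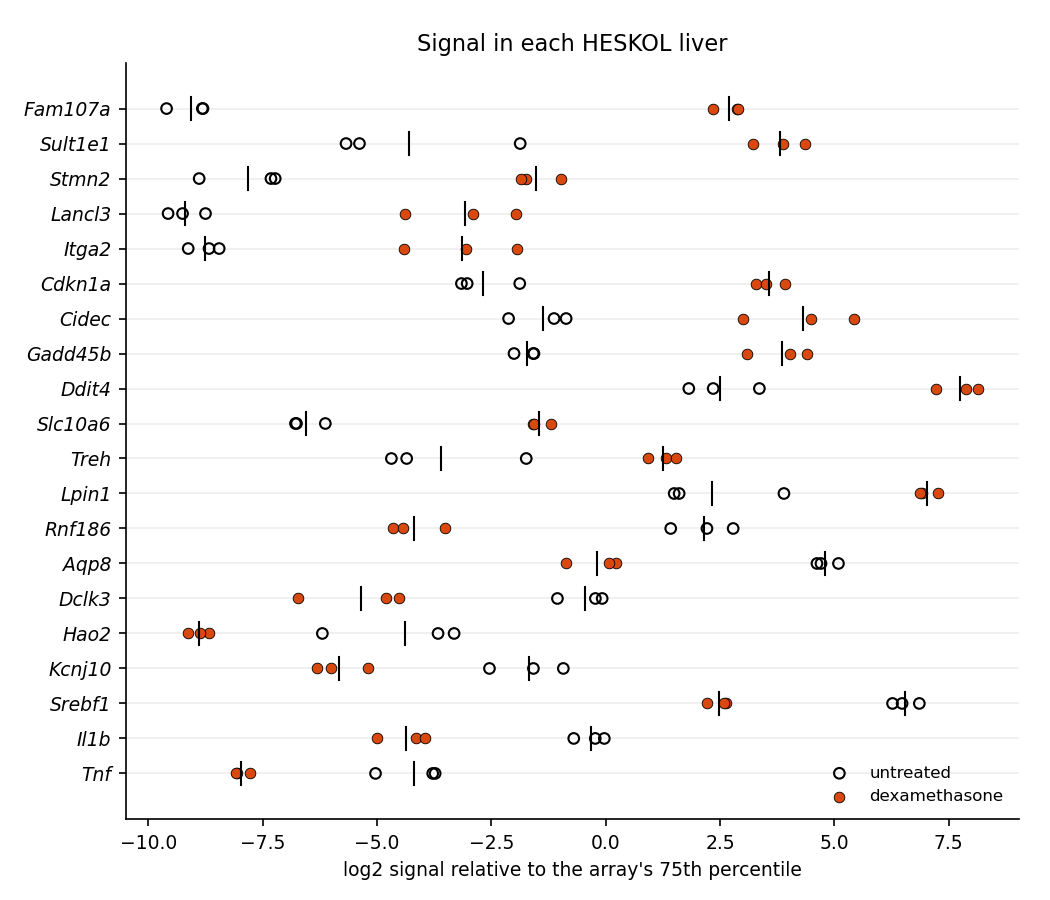
Log2 signal relative to the array's 75th percentile (horizontal) of 20 named genes in each of the 3 untreated (open) and 3 treated (filled) HESKOL livers; bars are group means. In every gene shown the 2 groups are apart, as they are in 1473 of the 1474 called features and in 34.3% of all features tested. Group means run from Fam107a, near -9.07 and 2.71, to Srebf1, at 6.54 and 2.48.

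Of the genes that fell, Rnf186, Aqp8 and Dclk3 are described first. Rnf186, a ubiquitin ligase of the endoplasmic reticulum in gut epithelium, read 2.79, 2.21 and 1.42 in untreated livers and -4.64, -4.43 and -3.52 in treated ones, 81.1-fold lower. Aqp8, a water channel of the bile canaliculus and mitochondria, fell from 4.71, 5.09 and 4.62 to 0.23, 0.07 and -0.87, 32-fold. Dclk3, a doublecortin-like kinase, fell 29.9-fold, from -0.08, -0.23 and -1.06 to -4.52, -6.73 and -4.81. These 3 falls were called in every leave-out and each left the groups at least 3.47 log2 units apart. Kcnj10, an inward-rectifier potassium channel, went from -0.93, -1.58 and -2.54 to -5.19, -6.01 and -6.31, 17.8-fold lower. Hao2, a peroxisomal oxidase of long hydroxy acids, dropped below background in all 3 treated livers (-3.31, -3.67 and -6.19 to -9.14, -8.68 and -8.86), at least 6.11-fold lower. Nrep fell by 4.29 on the log2 scale, but treated replicate 1 at -1.49 lay well above the other 2 (-4.84 and -4.66), and the call stood in 2 of 6 leave-outs. Car3, the carbonic anhydrase of liver and muscle, fell from 7.20, 6.15 and 6.53 to 3.42, 4.25 and 1.55, with treated replicate 3 the lowest, and its call stood in every leave-out.

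The tightest changes were not the largest. Phf11d, a zinc-finger protein, was at 0.00, 0.00 and -0.35 in untreated and 3.26, 2.98 and 2.82 in treated livers (3.13 ± 0.21 SE, limma adjusted p = 0.000184, the smallest of all features). Sesn1, a leucine-sensing inhibitor of mTOR complex 1, read 1.99, 1.84 and 1.98 and 4.71, 4.87 and 4.50 (2.76 ± 0.21 SE). Retreg1, a receptor for autophagy of the endoplasmic reticulum, read 2.03, 1.72 and 1.97 and 5.57, 5.48 and 5.41. The SD within a group was 0.08 to 0.23 for these 3 genes. Shisa9, Cdc42ep5 and Myom1 rose 6.35-, 9.26- and 5.21-fold with adjusted p-values of 0.000657 to 0.00101. Among falls with the smallest p were Tnfaip2 (-2.89), S1pr2 (-2.66), a receptor for sphingosine 1-phosphate, the transcriptional repressor Hic1 (-2.29) and the lipid transporter Abca2 (-1.49 ± 0.17 SE).

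Most classical glucocorticoid receptor targets rose. Of 23 tested, 14 rose and 0 fell, with a median change of 1.88 beside -0.003 for all features (1.39 with slide as a block). Over all features 3.65% rose and 4.22% fell, the shares to set beside the counts of this and each later list. Dusp1, the phosphatase that switches off MAP kinases, was at 1.29, 1.28 and 1.21 in untreated and 3.45, 3.11 and 3.11 in treated livers. Per1, a repressor of the clock loop, read 0.00, -0.65 and 1.09 and 2.63, 2.26 and 2.50, and Klf9, a transcription factor, read 1.80, 1.51 and 2.29 and 3.35, 3.12 and 3.53. The untreated livers were spread most for Per1, where replicate 3 was the highest. Tat, tyrosine aminotransferase, rose from an already high 7.17, 7.13 and 7.98 to 8.60, 8.96 and 8.91 (2.64-fold by the measured signals). Of the 6 Tat spots 1 was saturated, so that its value is a lower limit. Cebpd, a transcription factor of the acute phase, rose 6.11-fold, Tdo2, which opens the tryptophan ring, 4.87-fold, and Errfi1, an inhibitor of the EGF receptor, 2.61-fold. Fkbp5, a receptor chaperone, read -0.10, -0.64 and -0.47 and 3.93, 2.48 and 3.28 without overlap, yet missed the threshold (3.63 ± 1.05 SE, limma adjusted p = 0.0576). Tsc22d3 (GILZ), a mediator of the drug's action in immune cells, also missed it at 1.88 ± 0.60 SE (limma adjusted p = 0.0812). The count of called targets was 7 without untreated replicate 2 and 14 without untreated replicate 3. Among the receptor, its chaperones and the enzymes that activate the hormone, 0 of 15 were called. The receptor gene Nr3c1 was at 2.52, 2.40 and 2.78 and 2.14, 2.01 and 2.05 (-0.51 ± 0.18 SE, adjusted p = 0.114 in limma), and Hsd11b1, which regenerates active hormone, at 7.06, 6.70 and 7.23 and 6.70, 6.81 and 6.64, with overlapping groups.

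Inhibitors of insulin and mTOR signalling made up most calls of that pathway. Of 31 tested, 5 rose and 2 fell (median 0.21). Ddit4 (REDD1), an inhibitor of mTOR complex 1, rose from 1.82, 2.35 and 3.36 to 7.22, 8.14 and 7.89, 37.7-fold. Sesn2, another sestrin, read 2.12, 1.84 and 2.38 and 3.43, 3.87 and 3.64, and Igfbp1, a secreted carrier of insulin-like growth factors, 4.98, 4.86 and 6.00 and 8.58, 9.0 and 8.74. Trib3, a pseudokinase that binds AKT, was 4.02-fold higher but was called in 0 of 6 leave-outs. The members that fell were inhibitors too: Ddit4l (REDD2) by 1.97 and a further sestrin, Sesn3, by 1.15 on the log2 scale (0.68 higher by the probe of Sesn3 with the largest variance). By the brightest probes, at least 1 member of each family rose and 1 fell. Igf1 was at 5.85, 5.55 and 6.69 and 6.30, 6.58 and 6.75 and did not pass the test. The count was 4 without untreated replicate 1.

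Of the 20 tested genes of gluconeogenesis and glucose output, 4 rose and 0 fell, with a median of 0.72 and 19 of 20 above 0. Lists with no call were as one-sided, with 22 of 22 ribosomal protein genes and 27 of 28 of oxidative phosphorylation above 0. With quantile scaling the median was 0.48 for glucose output and 0.035 for ribosomal proteins. Ppargc1a, the coactivator that turns on fasting genes, read -0.66, -0.63 and 0.16 and 2.87, 3.41 and 2.78, 10.5-fold higher and called in every leave-out. Got1, Gpt2 and Sds, enzymes that turn aspartate, alanine and serine into oxoacids, rose 6.59-, 3.26- and 5.94-fold. For Sds the untreated livers were spread (4.06, 3.58 and 6.38) while the treated ones were close (6.83, 7.63 and 7.27). The rate-limiting genes did not pass: Pck1 was at 7.39, 7.03 and 8.16 and 7.92, 8.27 and 8.18 with overlapping groups (limma adjusted p = 0.28), and G6pc at 4.96, 4.18 and 6.00 and 6.29, 6.48 and 6.30 (limma adjusted p = 0.114). In both, untreated replicate 3 was the highest of its group, and without it 7 of the 20 genes were called in place of 4. The count was 2 without untreated replicate 1, untreated replicate 2, treated replicate 2 or treated replicate 3.

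Glycolysis and glycogen genes split, with 3 of 26 higher and 5 lower. Pfkfb3, which makes the activator of phosphofructokinase, rose 3.71-fold, and Pdk4, which blocks pyruvate entry into the citric acid cycle, read 0.01, 0.63 and -0.56 and 2.27, 2.94 and 2.25. Ppp1r3g, a glycogen-targeting subunit of protein phosphatase 1, read -0.03, -0.07 and -0.42 and then 4.91, 4.71 and 3.21. Ppp1r3g was thus 21.9-fold higher, yet with an SE of 1.19 it was called in 0 of 6 leave-outs. Pklr, the liver pyruvate kinase, fell from 1.64, 1.34 and 1.98 to 0.06, 0.35 and -0.20. The list's median of -0.42 turned to 0.21 with slide as a block, and the count of 8 fell to 1 without untreated replicate 1 and was at most 4 in any leave-out.

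Among genes of amino acid breakdown, all that were called rose. Of 39 tested genes for amino acid catabolism or urea synthesis, 11 rose and 0 fell (median 0.55, 0.99 with slide as a block). Sdsl, a serine dehydratase-like enzyme, read 1.73, 1.60 and 2.95 and 4.69, 4.99 and 5.01. Slc25a15, which carries ornithine into mitochondria, read 1.14, 1.20 and 1.05 and 3.96, 3.74 and 3.17. Aass, the first enzyme of lysine breakdown, rose 4.13-fold. The urea cycle enzymes Asl, Cps1 and Arg1 rose by 1.76, 1.37 and 1.44 on the log2 scale. Their groups barely separated, since untreated replicate 3 was high in each: for Arg1 it read 7.65 against a lowest treated value of 7.72. Arg1 and Cps1 were called in 1 of 6 leave-outs, and the list's count was 4 without untreated replicate 1, 4 without untreated replicate 2, 4 without treated replicate 2 and 12 without untreated replicate 3. Amino acid transporters had 4 of 19 higher and 1 lower. Slc38a2, a carrier of small neutral amino acids, went from 3.38, 3.14 and 3.66 to 6.04, 5.71 and 5.79, and Slc7a2, a carrier of arginine, rose 3.96-fold. Slc36a1, a lysosomal exporter, fell from 0.33, 0.67 and 0.84 to -1.25, -1.37 and -1.53.

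Several genes of fat and sterol synthesis fell. Of 24 tested fatty acid synthesis genes 8 fell and 1 rose, with a median of -0.81 (-0.59 with slide as a block). Srebf1, whose product switches on lipogenic genes, was the clearest, at 6.48, 6.27 and 6.86 in untreated and 2.63, 2.59 and 2.22 in treated livers, 16.6-fold lower. Elovl6, a fatty acid elongase, read 3.74, 3.31 and 4.04 and 1.75, 1.74 and 1.24. Fasn, fatty acid synthase, fell from 6.96, 7.04 and 6.88 to 5.22, 5.28 and 4.74. In each of these 3 genes the highest treated liver was at least 1.56 log2 units below the lowest untreated one. Acaca, acetyl-CoA carboxylase, fell by 1.75, Acly, ATP citrate lyase, by 1.86, and Mlxipl, the sugar-sensing factor ChREBP, by 1.20 (log2). Mid1ip1, an activator of acetyl-CoA carboxylase, fell 12.4-fold from 4.69, 4.34 and 4.21 to 0.84, 0.70 and 0.80. The anchors that hold SREBP in the endoplasmic reticulum moved in opposite directions. Insig2 rose from 3.41, 3.28 and 3.95 to 6.86, 7.82 and 6.74, and Insig1 fell from 2.76, 3.21 and 1.86 to 0.89, -0.14 and -0.34. The list's 9 calls became 3 without untreated replicate 1, untreated replicate 2 or treated replicate 2.

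Cholesterol synthesis and uptake had 9 of 24 tested genes lower and 0 higher. The median of -1.88 became -0.40 with slide as a block. Nsdhl, a sterol dehydrogenase, read 1.00, 1.40 and 1.18 and -1.47, -1.61 and -1.58, with its call kept in every leave-out. Idi1, isopentenyl diphosphate isomerase, fell from 3.73, 4.29 and 4.10 to 1.27, 1.88 and 1.62, and Mvd and Fdps, the enzymes beside it in the pathway, by 2.69 and 2.36. Sqle, squalene epoxidase, and Cyp51, lanosterol demethylase, fell by 1.84 and 2.08. The treated livers were close together for Sqle (0.89, 0.73 and 0.78) and the untreated ones spread (2.11, 3.33 and 2.49, with replicate 2 the highest). Hmgcs1, HMG-CoA synthase, did not overlap between groups (5.29, 6.11 and 4.76 and 2.69, 2.89 and 2.92) and just missed the threshold (limma adjusted p = 0.0512). Srebf2, the main activator of this pathway, was at 3.06, 3.54 and 3.24 and 3.01, 3.20 and 3.18 with overlapping groups. The count of 9 fell to 1 without untreated replicate 2 and to 1 without treated replicate 2, and was 7 without untreated replicate 3.

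Genes for proteins that coat, fuse or empty lipid droplets rose in several cases. Among 28 tested droplet, lipase and lipin genes 8 rose and 2 fell (median 0.40, 0.95 with slide as a block). Cidec, which fuses droplets, read -0.87, -2.12 and -1.13 and 2.99, 5.44 and 4.50, 51.3-fold higher, with treated replicate 1 the lowest of its group. Plin4, a droplet coat protein, rose 22.7-fold from -1.19, -1.08 and -0.33 to 3.60, 3.89 and 3.44, and its relative Plin5 read 3.46, 3.34 and 4.35 and 6.42, 6.63 and 6.94. Lpin1, the phosphatidate phosphatase and coactivator, went from 1.61, 1.5 and 3.90 to 6.92, 6.87 and 7.26, with untreated replicate 3 the highest of its group. Pnpla2, the triglyceride lipase ATGL, rose 4.75-fold, and G0s2, its inhibitor, fell by 2.94 with the treated livers spread (-0.93, 2.27 and 1.56). Lpl, the lipase of lipoproteins, fell by 1.85. Of 5 tested adipocyte markers 2 rose, Cidea 5.31-fold and Fabp4 3.77-fold, and 1 fell, Slc2a4, the insulin-regulated glucose transporter GLUT4, by 3.08 on the log2 scale (-0.63, -0.99 and 0.03 to -3.06, -3.37 and -4.41). Their median of 1.36 was -0.14 without treated replicate 2, and Cidea was called in 6 of 6 leave-outs, Fabp4 in 2 and Slc2a4 in 1. The summed level of all 10 adipocyte markers with a probe was 8.38 to 10.8 in untreated and 15.1 to 38.0 in treated livers (linear signal relative to the 75th percentile). In a sum over different probes the brightest members weigh most. Of the list's defining members Lep and Retn were not above background on any HESKOL array, and the part of fat tissue in these values was not tested. The count of 10 fell to 5 without untreated replicate 1 and to 5 without untreated replicate 2.

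Fatty acid oxidation, ketone body and PPAR alpha target genes had 7 of 30 higher and 0 lower (median 0.67). Cyp4a10 and Cyp4a14, fatty acid hydroxylases, rose by 2.30 and 3.18, Acot1, a thioesterase, by 3.13, and Cpt1a, the gate of mitochondrial oxidation, by 0.93 on the log2 scale. The Cyp4a and Acot genes have near-identical copies, so a probe of 1 copy may read others. The count of 7 was 0 without untreated replicate 2, untreated replicate 3, treated replicate 2 or treated replicate 3, and 3 without untreated replicate 1. Apoa4, a lipoprotein of the fasting state, rose from 1.46, 0.69 and 1.20 to 3.42, 4.65 and 5.92, and was the sole call of 22 apolipoprotein genes. Bile acid genes had 1 of 23 higher and 2 lower, beside 3.65% and 4.22% of all features. These 3 calls became 0 without untreated replicate 1 and at most 2 in any leave-out. The canalicular pump Abcb11 fell by 1.16 and the basolateral exporter subunit Slc51b by 3.09, while Cyp7a1, the rate-limiting enzyme of bile acid synthesis, read 4.12, 3.53 and 4.39 and 4.54, 3.21 and 4.22 with overlapping groups.

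**Figure D3:**
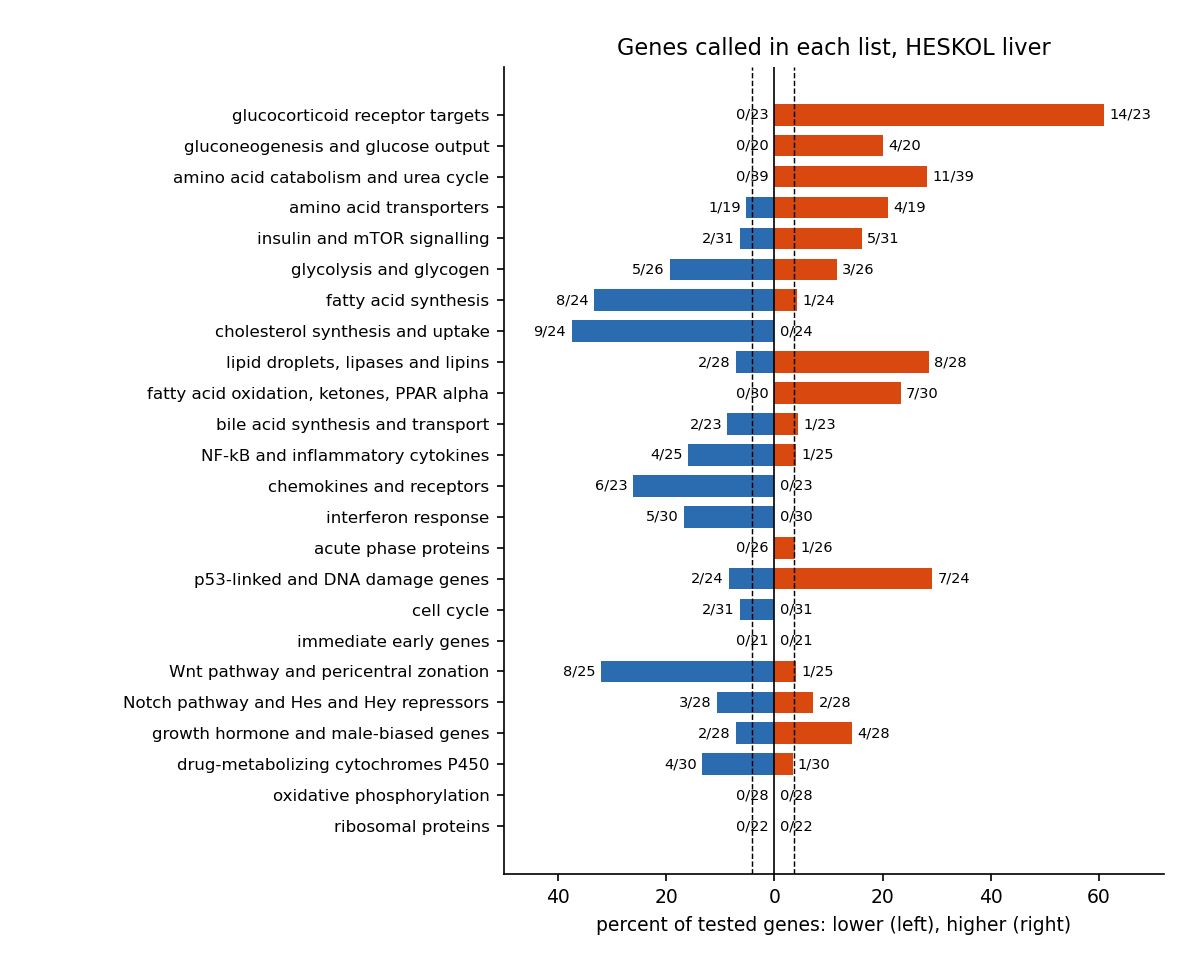
Share of tested genes in 24 lists (vertical) that rose (right) or fell (left) with dexamethasone in HESKOL liver at limma adjusted p under 0.05, in percent, with the counts printed; dashed lines mark the 3.65% and 4.22% of all 18726 features. Receptor targets reach 14 of 23 higher, and cholesterol genes 9 of 24 lower.

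Cytokines and chemokines were among the genes that fell. Of 25 tested genes of NF-kB signalling and its cytokines 4 fell and 1 rose (median -0.47). Il1b, interleukin 1 beta, read -0.23, -0.03 and -0.70 in untreated and -4.15, -3.95 and -5.0 in treated livers, 16.6-fold lower. Tnf, tumour necrosis factor, dropped below background in all 3 treated livers (-3.73, -3.78 and -5.03 against -7.78, -8.06 and -8.08), at least 7.08-fold lower. Acod1, the itaconate-making enzyme of activated macrophages, fell from -0.85, -1.64 and -3.27 to -6.24, -6.76 and -6.98 and was above background in 1 treated liver. Il1b and Tnf were called in every leave-out, Acod1 in 2 of 6. Nfkbie, an inhibitor of NF-kB, fell by 1.81, and Il1r1, the interleukin 1 receptor, rose by 2.40. The list's 5 calls became 3 without untreated replicate 1, untreated replicate 2, treated replicate 2 or treated replicate 3. Chemokines and their receptors had 6 of 23 lower and 0 higher (median -0.96, -0.21 with slide as a block). Ccl2, which draws monocytes, read -0.69, -0.52 and -2.15 and -3.87, -4.76 and -5.91. Ccl3 fell by 2.86 and Cxcl1, which draws neutrophils, by 3.30. The chemokine count of 6 was 0 without untreated replicate 1, untreated replicate 2, treated replicate 2 or treated replicate 3. Outside that list Ccl17 rose from -6.01, -6.04 and -5.77 to -3.46, -2.86 and -3.72 and the T cell costimulator Cd28 from -7.44, -7.02 and -7.66 to -3.88, -2.78 and -3.95; both were chosen after their values were seen, as genes called in every leave-out.

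Interferon response genes had 5 of 30 lower and 0 higher (median -0.86, -0.31 with slide as a block). The factors Irf1, Irf5 and Irf9 fell by 2.10, 1.71 and 0.90, and the GTPases Igtp and Iigp1 by 1.36 and 1.08. Their count was 0 without untreated replicate 1 and 0 without treated replicate 2, and at most 2 in any leave-out. Of 17 antigen presentation genes 1 fell, Ciita, the switch of class II genes, by 2.41. Acute phase proteins had 1 of 26 called, Serpina3n, which rose 3.99-fold, and complement and coagulation 1 of 34, Pros1, which rose by 0.77. Over all features 7.87% were called in either direction. Ciita was called in 1 of 6 leave-outs, and Serpina3n and Pros1 in 0 of 6.

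Markers of immune cells were read beside these lists. Summed levels add the signals of different probes, so the brightest members weigh most. The summed level of 16 Kupffer cell and macrophage markers was 258 to 415 in untreated and 111 to 248 in treated livers. Of those 16 genes 2 fell, Adgre1 by 1.60 and Lyz2 by 1.70, and Cd163, a scavenger receptor of macrophages, rose by 1.38. The 3 calls were 0 without untreated replicate 1, untreated replicate 2, treated replicate 2 or treated replicate 3, and the list's median of -0.88 was -0.16 with slide as a block. B cell markers summed to 4.88 to 9.48 and 0.854 to 2.63, and 2 of 10 fell, Blnk and Cd79a. The B cell count was 0 without untreated replicate 1, untreated replicate 2, treated replicate 2 or treated replicate 3, and the median of -1.79 was 0.20 with slide as a block. Neutrophil markers summed to 10.5 to 283 without and 3.24 to 40.3 with the drug, overlapping ranges in which 0 of 11 were called. T and NK cell markers overlapped (5.32 to 6.82 and 4.59 to 6.23), with 1 of 16 lower, Gzmb, called in 2 of 6 leave-outs. Fewer cells of a type and less RNA per cell cannot be told apart in whole liver, and the part of these cells in the inflammatory values was not tested. Hepatocyte markers were bright in every liver (2090 to 3450 untreated, 2760 to 3850 treated), as the tissue label says. Endothelial markers summed to 60.8 to 66.6 and 59.0 to 69.2. Among them Lyve1, a hyaluronan receptor of sinusoids, rose from 0.94, 1.47 and 1.27 to 3.93, 4.12 and 3.48, and Kdr and Fcgr2b fell by 1.56 and 1.00. Lyve1 was called in 6 of 6 leave-outs, and Kdr and Fcgr2b in 0 of 6. Outside that list, Vcam1, an adhesion molecule, rose 3.57-fold and Edn1, endothelin 1, 4.61-fold, both called in every leave-out and chosen after their values were seen. Stellate cell, bile duct and dendritic cell markers had 1 of 12, 1 of 9 and 0 of 6 called. Erythroid, pancreas and skeletal muscle markers had 0 of 5, 0 of 6 and 0 of 5 called.

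**Figure D4:**
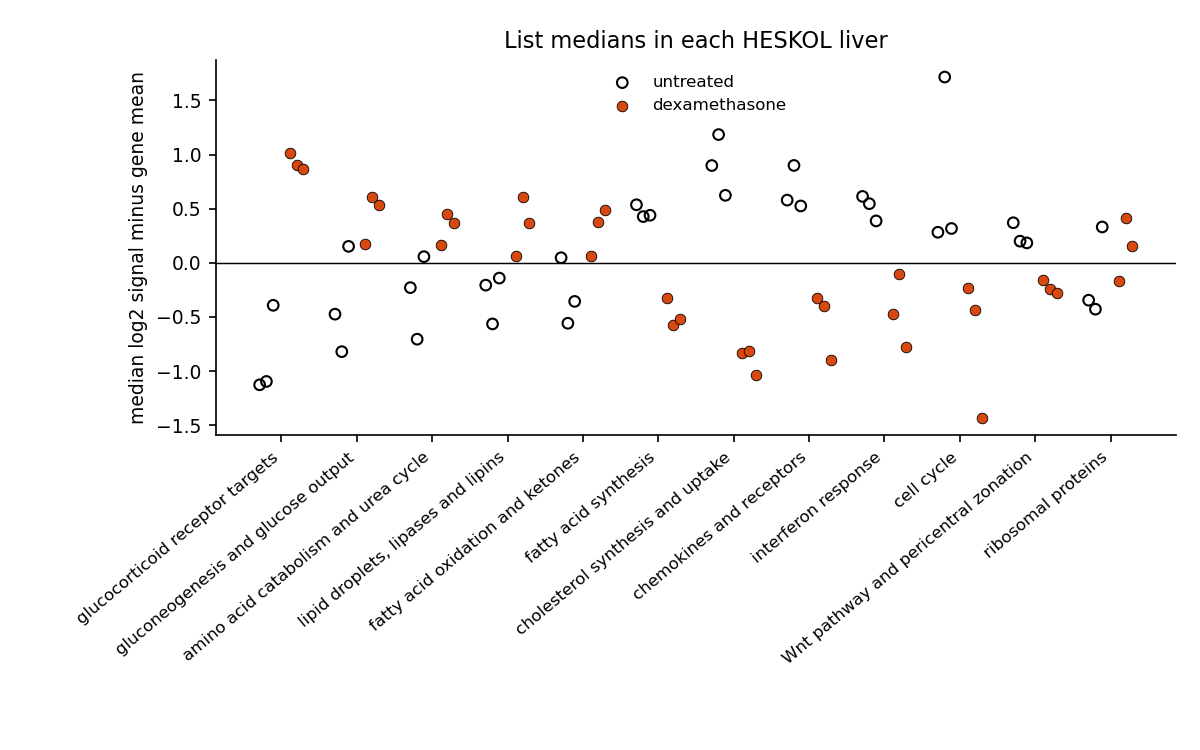
Median over a list's tested genes of the log2 signal minus the gene's mean over the 6 HESKOL livers (vertical), for 12 lists (horizontal) in each untreated (open) and treated (filled) liver. Receptor targets lie at -1.13 to -0.39 untreated and 0.86 to 1.02 treated, and cholesterol genes lie the other way round.

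Stress and growth arrest genes were among the largest changes. Of 24 tested p53-linked and DNA damage genes 7 rose and 2 fell (median 0.49, 0.81 with slide as a block). The GADD45 family was divided: Gadd45b and Gadd45g rose 47.4- and 16.1-fold, and Gadd45a fell from 2.35, 1.89 and 0.56 to -2.41, -2.14 and -2.91. Gadd45g read 2.46, 3.12 and 5.23 and 7.34, 8.01 and 7.49, so that untreated replicate 3 was the highest untreated liver. Trp53inp1, an autophagy factor, rose by 2.25, and Plk2, a polo-like kinase, fell by 1.61. Gadd45a was called in 1 of 6 leave-outs and Gadd45b and Gadd45g in all 6. Among 31 cell cycle genes 2 fell, E2f1 and Ccnd2, and 0 rose, beside 4.22% and 3.65% of all features. Both were called in 0 of 6 leave-outs. The list's centred medians were 0.28, 1.72 and 0.32 in untreated and -0.23, -0.43 and -1.43 in treated livers, and its median change of -1.37 was -0.95 without untreated replicate 2. Immediate early genes had 0 of 21 called, and their median of -0.05 became 1.84 with slide as a block. MAP kinase feedback genes had 4 of 16 higher, among them the phosphatases Dusp4 and Dusp8, called in 2 and 0 of 6 leave-outs. Their count was 1 without untreated replicate 2, treated replicate 1 or treated replicate 3, and 2 in each of the other leave-outs.

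Part of the pericentral programme fell. Wnt signals from the central vein set the gene programme of the hepatocytes around it. Of 25 tested genes 8 fell and 1 rose. Lgr5, a receptor that strengthens Wnt signals, read -1.07, -0.77 and -1.31 and -4.76, -4.31 and -3.62, 9.07-fold lower. Sp5, a Wnt target and repressor, fell from 0.09, 0.02 and -0.03 to -2.91, -2.97 and -1.80, and Tbx3, a pericentral transcription factor, from 3.02, 2.69 and 3.32 to 0.44, 1.26 and 1.45. In all 3 genes the untreated livers were close together and every treated liver lay below them. Axin2 and Rnf43, which damp Wnt signalling and are its targets, fell by 1.47 and 1.67, the receptor Fzd7 by 1.13 and the secreted Lect2 by 1.30. None of these 4 was called in any of the 6 leave-outs, and Rnf43 turned to 0.028 with slide as a fixed block. Cyp1a2, a pericentral cytochrome, fell from 5.21, 4.61 and 4.80 to 3.39, 2.55 and 2.82, the one call of the 9 that stood in every leave-out. Glul, glutamine synthetase of the innermost layer, was at 5.64, 5.18 and 5.87 and 5.93, 5.86 and 5.66 with overlapping groups. Dkk3 rose by 1.43. The list's median of -0.43 was 0.03 with slide as a block, and the count of 9 fell to 1 without untreated replicate 1 and was at most 4 in any leave-out.

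The Notch pathway, in which Hes1 sits, had 2 of 28 tested genes higher and 3 lower, beside 3.65% and 4.22% of all features. Heyl, a repressor of the same family as Hes1, read -2.05, -1.61 and -1.49 and -3.26, -4.22 and -4.57. Hes6, which antagonises Hes1, fell from 4.17, 3.68 and 4.61 to 1.80, 1.73 and 2.64, and Hey1 by 1.46. The receptor Notch4 rose from -0.83, -0.69 and -1.29 to 0.89, 0.53 and 0.37, the one call of the 5 that stood in every leave-out, and the corepressor Tle1 rose 2.83-fold. The count of 5 fell to 1 without treated replicate 2 and was at most 3 in any leave-out.

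Growth hormone and sex-biased genes had 4 of 28 higher and 2 lower. The shares over all features, 3.65% higher and 4.22% lower, stand beside each count in this paragraph. Cux2, a transcription factor normally higher in female liver, rose from -3.39, -3.70 and -4.34 to 0.40, -0.06 and 1.09. Hsd3b5, a male-biased steroid enzyme, went from 2.43, -1.58 and 2.60 to -2.23, -3.72 and -2.51. Untreated replicate 2 of Hsd3b5 lay near the treated livers, and its call stood in 1 of 6 leave-outs, while Cux2 was called in all 6. Lepr, the leptin receptor, rose from -2.23, -0.73 and -0.78 to 2.55, 2.68 and 1.26 and Stat5a, a signal carrier of growth hormone, fell from 1.51, 1.98 and 0.76 to -0.07, -0.33 and -0.21. Circadian genes had 3 of 20 higher and 2 lower, Bhlhe40 among the latter (3.06, 3.06 and 3.03 against 1.14, 0.63 and 1.36), a repressor whose untreated livers had an SD of 0.02. Cytochromes P450 of drug metabolism had 1 of 30 higher and 4 lower, with Cyp2c55 down by 3.11. Conjugating enzymes had 2 of 33 higher and 4 lower. Of 22 oxidative stress and metal-handling genes 3 rose and 1 fell: Txnip, the thioredoxin inhibitor, went from 2.65, 1.89 and 2.04 to 4.46, 5.42 and 4.31 and the metallothionein Mt1 from 5.63, 6.09 and 6.82 to 7.30, 8.34 and 7.93. Its neighbour Mt2 was at 6.67, 7.02 and 8.27 and 7.87, 8.63 and 8.34 and did not pass.

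Water and ion channel genes had 4 of 20 higher and 3 lower, among them Aqp8 and Kcnj10. Slc20a1, a phosphate carrier, and Atp1b1, a sodium pump subunit, rose by 2.98 and 2.50, both called in every leave-out. Liver transcription factors had 4 of 25 higher and 1 lower, nuclear receptors 1 of 26 higher, and extracellular matrix genes 3 of 30 higher and 1 lower. Ccn2, a matrix-linked growth factor, rose by 4.01. Without untreated replicate 1 the counts were 2 for growth hormone, 2 for clock, 2 for cytochrome P450, 2 for conjugating, 2 for oxidative stress, 4 for channel, 1 for transcription factor and 1 for matrix genes. The unfolded protein response had 2 of 27 higher, Trib3 and Atf6, each called in 0 of 6 leave-outs. Housekeeping machinery gave no calls: 0 of 28 genes of oxidative phosphorylation, 0 of 22 ribosomal proteins and 0 of 21 heat shock proteins, with medians of 0.27, 0.30 and 0.43. At an unadjusted p under 0.05 they held 0, 0 and 4 genes.

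Whether the response depended on genotype was tested for every feature. The difference of the responses, HESKOL minus wild type, was called for 3 of 18726 features (0.016%) in limma. Dexamethasone raised Phf11d by 3.13 in HESKOL against 0.31 in wild-type liver, and Sesn1 by 2.76 against 0.12. Il1b changed by -4.05 in HESKOL and by 0.52 in wild type. In wild-type liver 36 features (0.192%) were called, so a gene called in HESKOL and not there is not shown to differ. The wild-type untreated livers read 0.17, 0.04 and -0.24 for Phf11d, 1.52, 1.83 and 1.96 for Sesn1 and -0.62, -1.77 and -1.24 for Il1b. The treated ones read 0.15, 0.28 and 0.45, 1.91, 1.60 and 2.18 and -0.26, -1.39 and -0.41. For Phf11d and Sesn1 the wild-type groups lay close to untreated HESKOL livers, and the treated HESKOL livers alone stood above them.

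**Figure D5:**
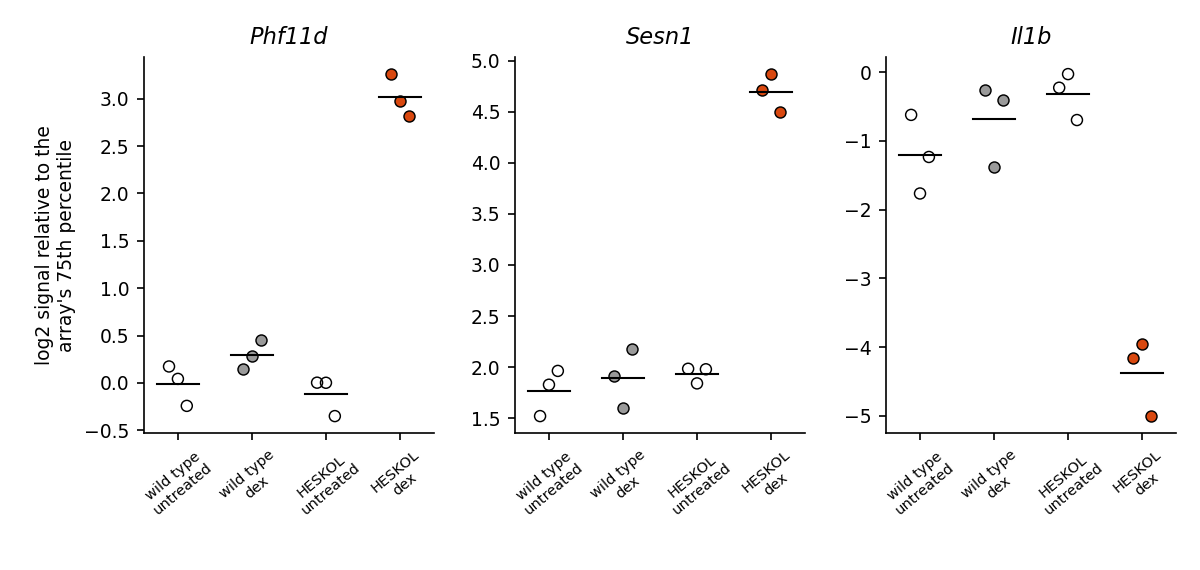
Log2 signal relative to the array's 75th percentile (vertical) of Phf11d, Sesn1 and Il1b in each of the 12 livers by group (horizontal); bars are means of 3. Treated HESKOL livers lie above the other groups for Phf11d and Sesn1 and below them for Il1b.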

How the data were processed

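Total RNA (500 ng per liver, per the labels' protocols) was hybridised to 12 Agilent one-colour arrays designed on mouse build mm7. The scanner output came from Agilent Feature Extraction 9.5.3.1. The deposited intensities are linear processed signals that the authors' scanner software had already corrected for background, per the file headers. Here control spots were dropped, log2 taken, each array's log2 75th percentile subtracted, and spots of a probe averaged. Tested probes had signal well above background in every liver of 1 or more of the 4 groups; the brightest probe stood for a gene. Of 41174 probes, 23079 were named by RefSeq accession and 7600 by none. On the 6 HESKOL arrays 67.5% to 72.3% of probes were well above background, and 3 livers per group limit the precision. limma 3.58.1 in R 4.3.3 fitted 4 group means over 12 arrays (8 residual degrees of freedom), with Benjamini-Hochberg adjustment over 18726 features and a threshold of 0.05. Where a probe was not above background in a whole group, the fold is a lower bound against the lowest detectable signal. Its limma p still takes the background readings as measured values. The model was tested on simulated data. The labels call the arrays separate mice. The deviations of same-numbered arrays had correlations of -0.076, -0.066 and 0.305, beside -0.54 to 0.565 for arrays of different numbers. Deviations from a mean of 3 are tied to each other, so these values cannot exclude pairing by number. The main fit took the arrays as unpaired. Genes were named by rule: the 20 largest called changes each way without overlap, the 10 smallest p each way, 16 chosen genes, and up to 8 called members of each of 51 gene lists. The members and lists were chosen with earlier results of these data known. Alternatives varied scaling, background correction, filter, probe choice, slide, replicate block and arrays. Some genes the rule named are not reported here. Promoter sequences are RefSeq windows on GRCm38.p6.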

Additional observations from a re-analysis of the deposited data

Results flagged for a closer look

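The response to dexamethasone differed between HESKOL and wild-type liver, by a test of the difference itself in limma, for 3 features. For Il1b the HESKOL response minus the wild-type response was -4.57 on the log2 scale (adjusted p = 0.0343), for Phf11d it was 2.83 (adjusted p = 0.0193) and for Sesn1 2.63 (adjusted p = 0.0243). The sign of each held in all alternatives run for it. In several of these, such as the replicate block, the trended fit and the stricter thresholds, the estimate stays the same, so its sign was fixed in advance. Leaving out 1 array could hardly turn differences this large. The held sign is therefore no sign of stability. The difference lost its call for all 3 genes with slide as a fixed block (-4.94 for Il1b, 2.55 for Phf11d and 2.30 for Sesn1, each adjusted p = 0.767). All 3 also lost it in the unscaled deposited values (adjusted p = 0.129 for Il1b, 0.115 for Phf11d and 0.0904 for Sesn1) and without wild-type untreated replicate 2 (0.124 each). Without wild-type untreated replicate 3 it was lost for Il1b (0.097) and Sesn1 (0.0666), and without wild-type treated replicate 3 for Il1b (0.0523). With the replicate block the adjusted p was 0.0679 for Il1b, 0.0448 for Phf11d and 0.076 for Sesn1, and with normexp background correction it was 0.0644 for Il1b. Leaving out a HESKOL array gave adjusted p-values of 0.0616 to 0.178 for Il1b, 0.0498 to 0.0976 for Phf11d and 0.0616 to 0.139 for Sesn1. The mean of all Sesn1 probes gave 2.51 with an adjusted p of 0.163, and the probe of largest variance 0.596 for Sesn1 and 0.0558 for Il1b.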

How the results depend on the processing

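The 1474 calls were 702 with normexp background correction (350 higher, 352 lower), 953 without the filter on dim probes (487 lower), 264 at an adjusted p under 0.01 (138 higher, 126 lower), and 0 with slide as a fixed block (0 higher, 0 lower). The unscaled deposited values gave 436 higher, and the 6 HESKOL arrays alone 1195 lower. Slide as a random block gave 2397 over 12 arrays (1081 higher, 1316 lower) and 7294 over 6 arrays (3267 higher, 4027 lower). The estimated correlation within a slide was -0.062 over 12 arrays and -0.377 over 6. A negative value narrows the SE of a comparison between slides (median 0.309 and 0.163 for features called in the main fit, beside 0.33). These higher counts therefore do not show that the calls withstand a slide effect. Leaving out 1 of the 12 arrays gave 367 to 2803 calls, 170 to 1272 higher and 184 to 1531 lower, the highest counts being those without wild-type treated replicate 1. The 3 differences between genotypes became 0 with the slide block and 0 to 13 with 1 array left out. Pairing by replicate number was not shown. With the replicate block 1492 features were called (684 higher, 808 lower), 1248 of them among the 1474. That fit called 2 differences between genotypes, of which Phf11d was 1 and neither Il1b nor Sesn1 the other. Quantile scaling, the array median, other probe choices and a trended fit kept the count within 1.5 times; the array median moved the median of all features to 0.102. With slide as a fixed block the sign turned for Cyp7a1 (2.60), Glul (-0.34), Hes1 (0.49), Hsd3b6 (0.059), Rnf43 (0.028) and Srebf2 (0.29). Cyp7a1 also turned with the array median (0.081) and the mean of probes (0.10), and ranged from -0.30 to 0.37 with 1 array left out. Sesn3 turned to 0.68 by its probe of largest variance. The cause of these changes was not tested. Probes not above background in a group give only a lower bound, as for 74 of the 1474.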
